A study of Mus musculus with 8 samples.

Results

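The 9 genes described here make NAD, couple it to NADP or consume it: Nmrk2, Nmrk1, Nampt, Nmnat1, Nmnat3, Nnt, Sirt3, Cd38 and Parp1. They were chosen by symbol from the 32285 genes counted in single-nucleus RNA-seq of whole mouse hearts, and all 9 passed the filter on low counts in cardiomyocytes, fibroblasts, endothelial cells and macrophages. The symbols matched 10 rows, because Nnt is listed with 2 overlapping gene models, and the second of these held 0 UMIs in every library.

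NAD carries electrons between metabolic reactions and is also split as a substrate by signalling enzymes, so that cells must rebuild it. The heart takes back nicotinamide through the enzyme NAMPT and can use nicotinamide riboside through the kinases NMRK1 and NMRK2, and both routes end with the NMNAT enzymes. NNT passes electrons from NADH to NADP in the inner mitochondrial membrane, while SIRT3, CD38 and PARP1 use up NAD.

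The hearts came from 4 WT and 4 Taz-KO mice, all male and 9 weeks old, with 1 library and 1 replicate number per mouse. Taz encodes Tafazzin, the acyltransferase that remodels cardiolipin, and its loss models Barth Syndrome. The Taz-KO mice carried a knockout genotype and the WT mice did not, no treatment is stated, and the strain and the design of the allele are not given in the sources used here. The question for these genes was how their RNA differed between WT and Taz-KO mice within each cell type, with the mouse as the replicate.

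Of 151264 nuclei kept, 30520 were named as cardiomyocytes, 37895 as fibroblasts, 21249 as endothelial cells and 11812 as macrophages. The study kept fewer nuclei of these hearts, and the filter used here set no limit on mitochondrial UMIs. Mitochondrial UMIs made up 1.57% of the library of Taz-KO replicate 5301, the lowest share, and 23.7% of that of WT replicate 4909, the highest. In every mouse the summed first 2 markers of each type (Ryr2 and Ttn, Pdgfra and Bicc1, Ptprb and Flt1, F13a1 and Mrc1) were at least 3.12-fold higher in that type than in any of the other 3, while all 6 fibroblast markers together stood only 1.12-fold to 9.71-fold above the next type. The types were named from lists that hold these same markers, so these folds describe the naming and are no separate check of it. Libraries held 20025456 to 348080773 UMIs (unique molecular identifiers, each 1 counted RNA molecule), and Taz-KO replicates 4685 and 5301 held 3492 and 5571 barcodes where the other 6 held 21190 or more. No more than 1.04% of the barcodes of the smaller library were shared between any 2 libraries. The 6 cardiomyocyte markers summed to between 5.31% and 28.6% of their cardiomyocyte level in fibroblasts, endothelial cells and macrophages, which is the measure used below for cardiomyocyte RNA counted in other nuclei. Taz itself was at 48.1 to 54.1 CPM (the UMIs of a gene scaled to an equal total of UMIs in every sum) in WT cardiomyocytes and at 28.6 to 42.3 CPM in Taz-KO cardiomyocytes, with no overlap.

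Of the 9 genes, only Nnt differed between genotypes past the threshold, and only in cardiomyocytes, where its fitted level after TMM scaling was 0.582 of WT. This call was close to the threshold and was lost in many of the alternatives given below. The test was edgeR's quasi-likelihood test on the counts summed per mouse, with Benjamini-Hochberg adjustment over all genes of the cell type, and a gene is called when its adjusted p is below 0.05. In cardiomyocytes 1 of 9 genes was called, beside 14.7% of all 18547 genes tested (6.36% called lower and 8.34% called higher in Taz-KO), so the share of these genes called was near that of all genes. In fibroblasts 0 of 9 were called beside 0.341% of all genes, in endothelial cells 0 of 9 beside 0.454%, and in macrophages 0 of 9 beside 0.251%. DESeq2 also called 1 gene, Nnt, in cardiomyocytes, beside 3496 of all 18536 genes. It called 0 of the 9 in each of the other 3 types, beside 349 of 17588 genes in fibroblasts, 280 of 16072 in endothelial cells and 118 of 13927 in macrophages. The genes with an unadjusted p below 0.05 were Nnt and Nmnat1 in cardiomyocytes, Nmnat3 in fibroblasts, Nmrk2 in endothelial cells and none in macrophages. Of all genes, 28.2%, 9.67%, 8.15% and 5.75% were below it in these types, in this order.

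**Figure D1:**
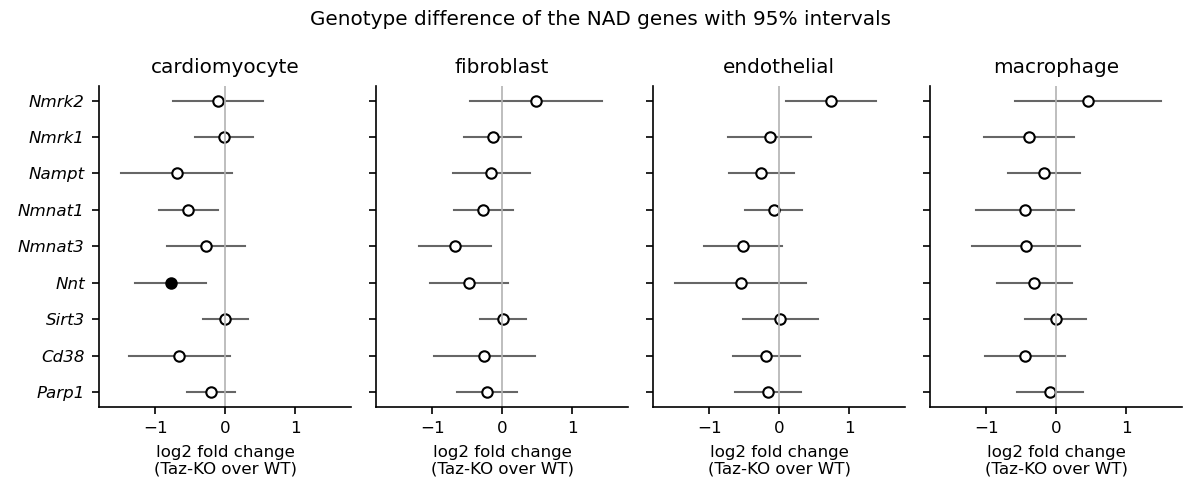
Log2 fold change of the 9 genes (Taz-KO over WT, x axis) with 95% intervals in 4 cell types, from sums over 4 WT and 4 Taz-KO mice. A filled point is called at an adjusted p below 0.05. The filled point is Nnt in cardiomyocytes at -0.78, and of the intervals in macrophages none leaves out 0.

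Nmrk2 and Nampt open the routes from nicotinamide riboside and from nicotinamide, and the stretches before their RefSeq starts are shown because they differ in their number of CG dinucleotides. Nmrk2 lies on chromosome 10 at chr10:81198170-81202051 on the minus strand and Nampt on chromosome 12 at chr12:32819545-32853349 on the plus strand (GRCm38). The 250 bases before each RefSeq start (GRCm38.p6, chr10:81202038-81202287 minus strand and chr12:32820085-32820334 plus strand) are printed 5′ to 3′, with each CG dinucleotide in capitals. The GENCODE gene starts differ from these RefSeq starts, and the Nampt stretch lies wholly within the GENCODE span of the gene, so it is the promoter by the RefSeq start alone.
Nmrk2: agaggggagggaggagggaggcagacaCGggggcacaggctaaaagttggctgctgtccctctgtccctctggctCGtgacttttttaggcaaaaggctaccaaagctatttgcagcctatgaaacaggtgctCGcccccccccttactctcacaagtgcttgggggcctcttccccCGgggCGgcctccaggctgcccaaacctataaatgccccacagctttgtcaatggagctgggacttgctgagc
Nampt: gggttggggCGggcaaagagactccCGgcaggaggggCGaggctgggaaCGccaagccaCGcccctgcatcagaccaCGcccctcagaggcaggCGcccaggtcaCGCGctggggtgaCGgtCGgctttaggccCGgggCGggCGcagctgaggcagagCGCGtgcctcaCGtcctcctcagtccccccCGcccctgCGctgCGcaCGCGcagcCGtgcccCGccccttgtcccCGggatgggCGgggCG
The Nmrk2 stretch holds 5 CG dinucleotides and the Nampt stretch 27, beside a median of 6 over the 32851 promoter windows of the RefSeq table. The letters TATAAA start 46 bases before the Nmrk2 start and are absent from the Nampt window, while 13.6% of all windows hold them on either strand. RefSeq windows matched 8 of the 9 genes, all but Nnt. The E-box CACGTG (bound by CLOCK and BMAL1) was in the Parp1 window alone of these 8 genes and in 7.15% of all windows, and neither the ATF4 core TGATGNAA (3.97% of all windows) nor the ERR element TCAAGGTCA (0.423%) was in any of them. Windows run to 50 bases past the start, both strands were searched, and no window of these 8 genes held 2 of the motifs.

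Nmrk2, the striated muscle kinase for nicotinamide riboside, was found mainly in cardiomyocytes and did not differ there between genotypes past the threshold. Its levels in WT cardiomyocytes were 105, 71.6, 143 and 115 CPM in replicates 4686, 4909, 5355 and 5356. In Taz-KO cardiomyocytes they were 73.0, 83.6, 169.6 and 121 CPM in replicates 4685, 4910, 5300 and 5301. The groups overlapped widely, and the highest and the next-lowest values of the 8 mice were both in Taz-KO. The log2 fold change was -0.10 with a 95% interval from -0.74 to 0.54 (adjusted p = 0.871, edgeR's quasi-likelihood test), which leaves room for a fold from 0.598 to 1.45. Its sign turned to 0.04 when the library sizes were used without TMM, so no direction can be read.

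Outside cardiomyocytes the Nmrk2 levels were lower, and in fibroblasts, endothelial cells and macrophages mostly no higher than the cardiomyocyte RNA counted there. In WT mice the means were 9.47 ± 1.30 CPM in fibroblasts, 11.03 ± 1.72 CPM in endothelial cells and 12.5 ± 2.28 CPM in macrophages (SD, n = 4). In 20 of the 24 sums of a mouse and one of these 3 types, Nmrk2 was at or below the share of its cardiomyocyte level that the cardiomyocyte markers had. The 4 sums with Nmrk2 above the markers were Taz-KO replicate 4910 in all 3 types and Taz-KO replicate 4685 in endothelial cells. Adipocytes were next to cardiomyocytes in the order of WT means, at 4.43, 14.1, 44.9 and 23.9 CPM in WT replicates 4686, 4909, 5355 and 5356 from 4, 34, 64 and 7 UMIs. There Nmrk2 was above the share of the markers in 3 of 7 mice, at 31.4% beside 27.2% in WT replicate 5355, 20.8% beside 10.1% in WT replicate 5356 and 20.2% beside 18.8% in Taz-KO replicate 4910. After thinning each nucleus to 1000 UMIs, 7.52% to 12.8% of WT cardiomyocyte nuclei had an Nmrk2 UMI, and 0.843% to 0.953% of WT fibroblast nuclei did. Without thinning these shares were 55.6% to 62.6% and 4.60% to 5.57%, with median depths of 8871 to 12417 UMIs in cardiomyocytes and 4303 to 6322 UMIs in fibroblasts. The part of cardiomyocyte RNA in the fibroblast share was not tested.

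In endothelial cells Nmrk2 was at 8.71 to 12.4 CPM in WT and at 19.8, 24.1, 22.0 and 6.37 CPM in Taz-KO replicates 4685, 4910, 5300 and 5301. The first 3 of these Taz-KO mice were above all WT mice and replicate 5301 was below all of them. The log2 fold change was 0.75 (95% interval 0.10 to 1.39, adjusted p = 0.498, edgeR's quasi-likelihood test), and without Taz-KO replicate 5301 it was 0.94 with an adjusted p of 0.045, which is the only alternative that called it. In the same mice the cardiomyocyte markers in endothelial cells were at 25.9%, 27.3%, 25.9% and 8.17% of their cardiomyocyte level, and in WT at 13.9% to 28.6%. The part of that RNA in the Nmrk2 difference was not tested.

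**Figure D2:**
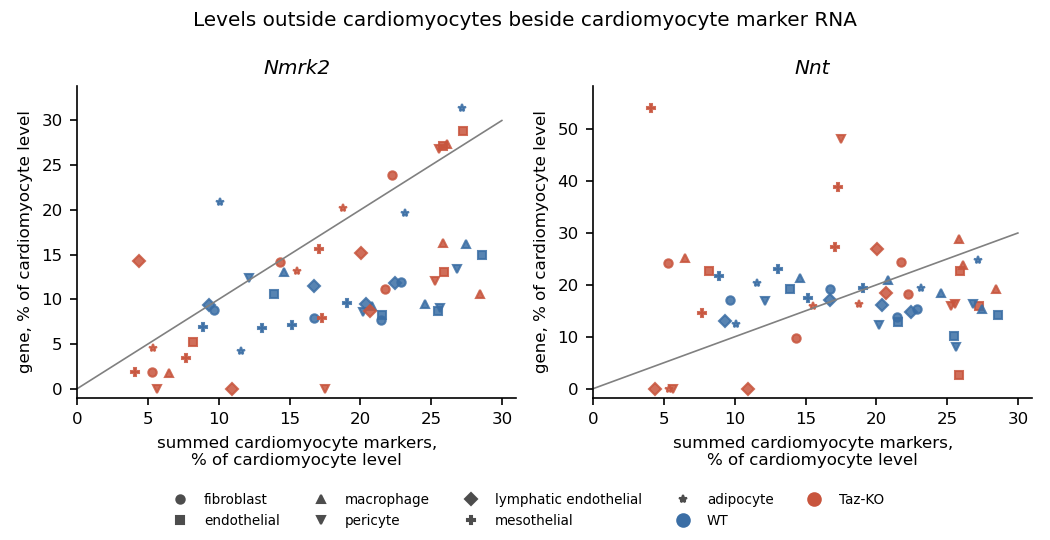
Level of Nmrk2 (left) and Nnt (right) in each cell type other than cardiomyocytes, as a percent of the same mouse's cardiomyocyte level (y axis), against the summed 6 cardiomyocyte markers as such a percent (x axis). Each point is 1 mouse and 1 cell type, the line marks equal percents, and in fibroblasts, endothelial cells and macrophages 20 of 24 Nmrk2 points and 14 of 24 Nnt points are on or below it.

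Nmrk1, the broadly expressed kinase for nicotinamide riboside on chromosome 19 (chr19:18631950-18652428, plus strand), was low in every cell type and, in WT mice, highest in adipocytes. In WT mice it ranged from a mean of 10.6 ± 1.74 CPM in macrophages to 24.7 ± 1.26 CPM in adipocytes (SD, n = 4). Adipocytes and lymphatic endothelial cells, the next type in the order, did not overlap over the WT mice, and each later neighbour in the order did overlap. The order was different in Taz-KO mice, with means of 13.3 CPM in adipocytes (n = 3) and 18.8 CPM in lymphatic endothelial cells (n = 4). In cardiomyocytes Nmrk1 was at 9.54 to 11.9 CPM in WT and 9.47 to 13.5 CPM in Taz-KO. Its log2 fold change there was -0.01 with an interval from -0.43 to 0.40.

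**Figure D3:**
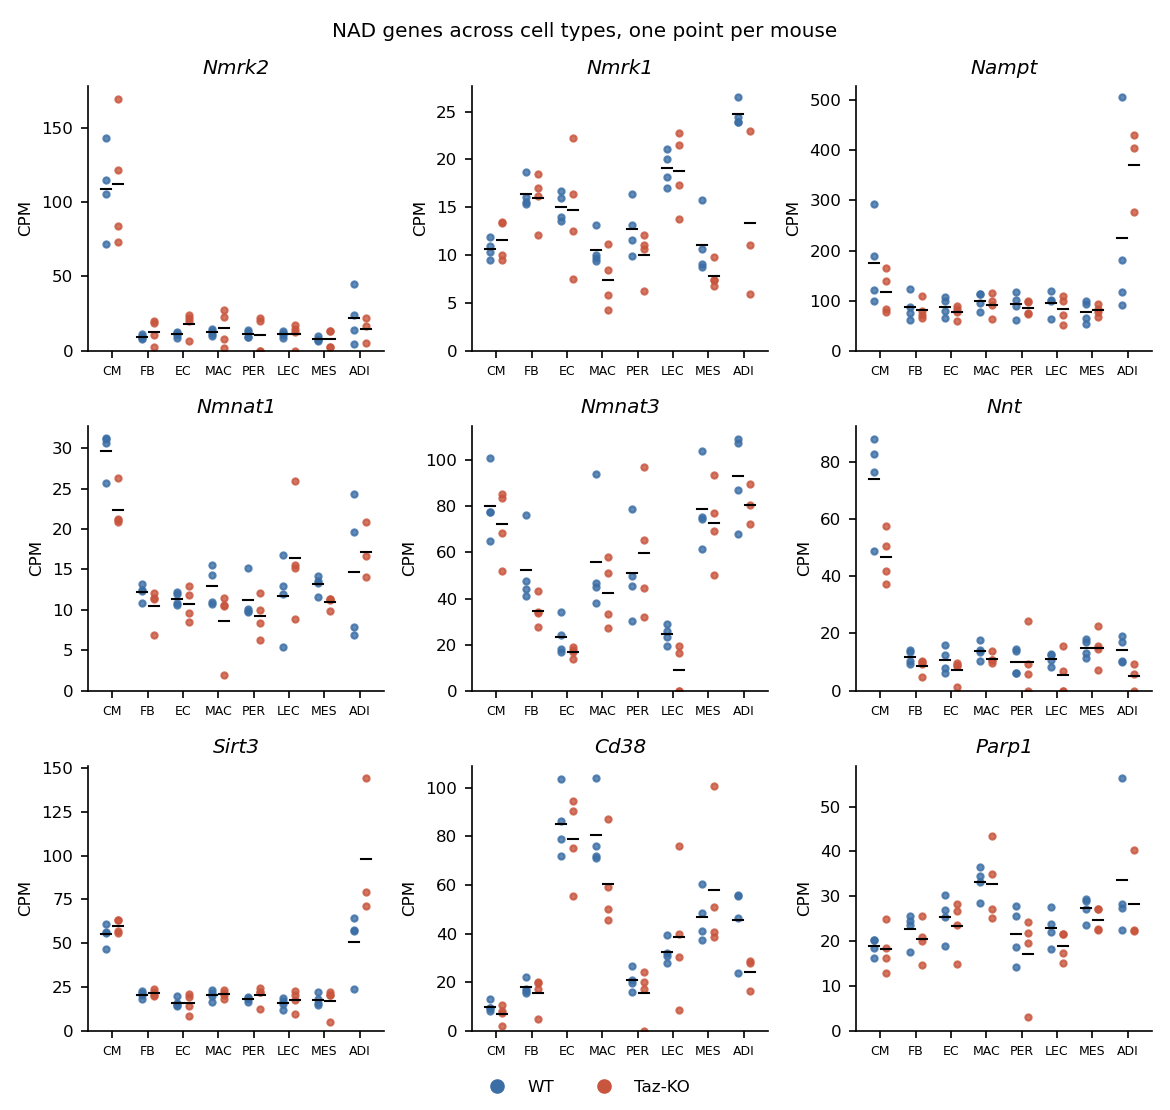
CPM (y axis) of the 9 genes in cardiomyocytes (CM), fibroblasts (FB), endothelial cells (EC), macrophages (MAC), pericytes (PER), lymphatic endothelial cells (LEC), mesothelial cells (MES) and adipocytes (ADI), with 1 point per mouse and a bar at the mean of each genotype. Nmrk2 and Nnt stand highest in cardiomyocytes and Cd38 in endothelial cells and macrophages. Adipocytes of Taz-KO replicate 4685 are left out, since fewer than 10 were found.

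Nampt, the rate-limiting enzyme of the salvage of nicotinamide, was measured in every cell type and varied widely between mice. In WT cardiomyocytes it was at 292, 188, 122 and 98.8 CPM in replicates 4686, 4909, 5355 and 5356. In Taz-KO cardiomyocytes it was at 140.0, 165, 78.3 and 82.9 CPM in replicates 4685, 4910, 5300 and 5301. The WT values spanned most of the range of all mice, and the groups overlapped. Nampt had a log2 fold change of -0.70 (95% interval -1.49 to 0.10, adjusted p = 0.241, edgeR's quasi-likelihood test), an interval that covers folds from 0.356 to 1.07. Over all alternatives it was negative and ran from -0.95 without Taz-KO replicate 4910 to -0.33 without WT replicate 4686, the mouse with the highest level.

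Clock genes differed between the same WT mice. Arntl, which encodes BMAL1, was at 3.47 and 9.26 CPM in cardiomyocytes of WT replicates 4686 and 4909 and at 42.0 and 96.6 CPM in WT replicates 5355 and 5356. Dbp, an output gene of the clock, ran the other way, at 85.5 and 93.0 CPM in the first 2 and at 13.5 and 5.95 CPM in the other 2. Nampt was thus higher in the WT mice with low Arntl and high Dbp than in those with high Arntl and low Dbp. In Taz-KO cardiomyocytes Arntl was at 4.79 to 9.40 CPM and Nampt at 78.3 to 165 CPM. The Taz-KO mice were less alike in other cell types, with Arntl at 12.5, 27.3, 55.7 and 64.1 CPM in fibroblasts of replicates 4685, 4910, 5300 and 5301 and at 143.8 CPM in macrophages of replicate 5301. WT fibroblasts had Arntl at 8.24, 28.1, 178 and 278 CPM in replicates 4686, 4909, 5355 and 5356. In fibroblasts Nampt had the same order over the WT mice, at 123, 86.7, 75.6 and 60.7 CPM in replicates 4686, 4909, 5355 and 5356. Of the 14 clock genes, edgeR's test called 0 in cardiomyocytes, beside 14.7% of all genes, and 1 had an unadjusted p below 0.05, beside 28.2%. DESeq2 called 1 of the 14, beside 3496 of all 18536 genes. The interaction test, described further on, asked whether the genotype difference in cardiomyocytes differed from that in another type. Against endothelial cells it called 2 of the 14 (14.3%, both negative, beside 2.13% of all genes). Against fibroblasts and macrophages it called 0, beside 3.95% and 0.982% of all genes. At an unadjusted p below 0.05 were 6, 6 and 5 against fibroblasts, endothelial cells and macrophages, beside 17.1%, 14.2% and 12.3% of all genes. The hour of collection is not given in the sources used here, and its part in the Nampt levels was not tested.

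**Figure D4:**
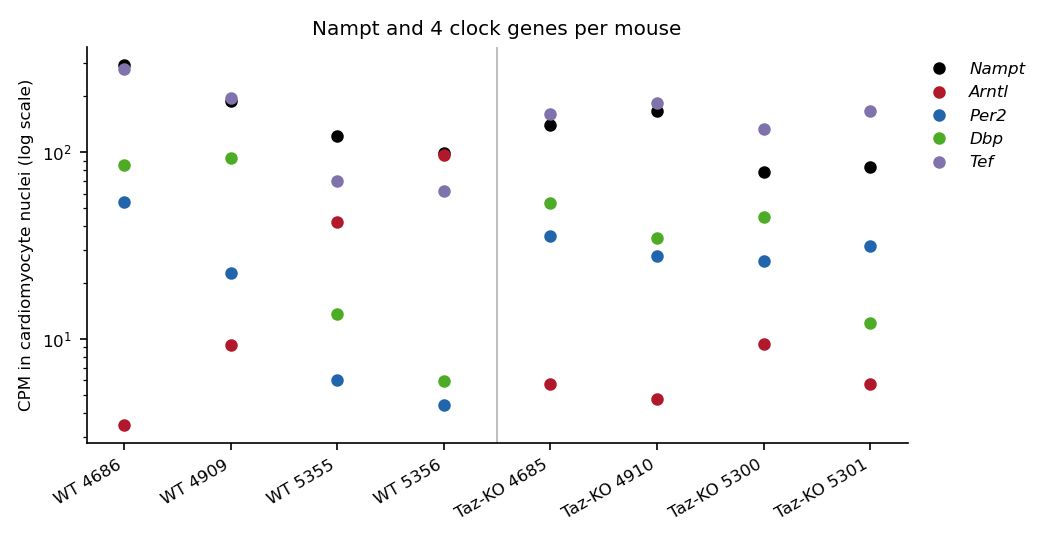
CPM in cardiomyocyte nuclei on a log axis for Nampt and the clock genes Arntl, Per2, Dbp and Tef, with 1 column of points per mouse and a line between the WT and Taz-KO mice. WT replicate 4686 has Nampt at 292 and Arntl at 3.47 CPM, and WT replicate 5356 has them at 98.8 and 96.6 CPM.

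Nampt was also high in adipocytes, at 92.3 to 506 CPM in WT and 278 to 430 CPM in the 3 Taz-KO mice with enough adipocyte nuclei. In the order of WT means each type overlapped with the next, from adipocytes (224 ± 191 CPM) and cardiomyocytes (175 ± 86.8 CPM) down to mesothelial cells (78.1 ± 22.7 CPM) (SD, n = 4). These ranges leave out that the types come from the same mice. Within each WT mouse every type but adipocytes was below its cardiomyocytes, at 32.2% (mesothelial) to 81.3% (lymphatic endothelial) of their level. This did not hold in every Taz-KO mouse, with macrophages at up to 116%. In fibroblasts, endothelial cells and macrophages the log2 fold changes between genotypes were -0.15, -0.25 and -0.17, and each interval included 0.

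The NMNAT enzymes make NAD from nicotinamide mononucleotide, NMNAT1 in the nucleus and NMNAT3, by textbook accounts, in mitochondria. Nmnat1 (chr4:149467572-149485202, minus strand) was at 30.6, 25.7, 31.1 and 31.3 CPM in cardiomyocytes of WT replicates 4686, 4909, 5355 and 5356. It was at 20.8, 21.3, 21.2 and 26.3 CPM in Taz-KO replicates 4685, 4910, 5300 and 5301. The overlap came from Taz-KO replicate 5301 and WT replicate 4909 alone. The log2 fold change was -0.53 ± 0.19 (SE) with an interval from -0.95 to -0.10, and its adjusted p of 0.096 (edgeR's quasi-likelihood test) missed the threshold. The adjusted p was 0.018 without Taz-KO replicate 5301 and 0.047 with nuclei typed one by one from the 2 first markers. It was 0.044 after subtraction of an ambient share, taken from barcodes with few UMIs, and 0.040 in nuclei under 5% mitochondrial UMIs. Over all alternatives it ran from 0.018 to 0.225. Outside cardiomyocytes Nmnat1 had WT means from 11.2 to 14.7 CPM, and cardiomyocytes did not overlap with the next type, adipocytes, over the WT mice.

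Nmnat3 (chr9:98287435-98420438, plus strand) was highest in adipocytes, cardiomyocytes and mesothelial cells, with WT means of 93.0 ± 19.4, 80.3 ± 15.02 and 78.7 ± 18.0 CPM (SD, n = 4), which overlapped. Endothelial cells were lowest at 23.2 ± 8.03 CPM, and pericytes stood above lymphatic endothelial cells with no overlap. In cardiomyocytes it ranged from 65.0 to 101 CPM in WT and from 51.8 to 85.3 CPM in Taz-KO. In fibroblasts it was at 44.3, 47.7, 41.0 and 76.0 CPM in WT replicates 4686, 4909, 5355 and 5356. The Taz-KO fibroblasts were at 34.2, 33.7, 27.6 and 43.3 CPM in replicates 4685, 4910, 5300 and 5301. The first 3 of these were below all WT mice and replicate 5301 was above WT replicate 5355. Its log2 fold change there was -0.67 (95% interval -1.19 to -0.16, unadjusted p = 0.016 and adjusted p = 0.332, edgeR's quasi-likelihood test), so it was not called.

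Nnt, the nicotinamide nucleotide transhydrogenase, was the gene called in cardiomyocytes. Its levels in WT cardiomyocytes were 48.9, 88.0, 76.3 and 82.6 CPM in replicates 4686, 4909, 5355 and 5356. In Taz-KO cardiomyocytes they were 50.4, 57.4, 37.4 and 42.0 CPM in replicates 4685, 4910, 5300 and 5301. 3 WT mice were above all Taz-KO mice, and WT replicate 4686 was among the Taz-KO values. Nnt fell by 0.78 ± 0.23 on the log2 scale (SE, 95% interval -1.29 to -0.27, adjusted p = 0.045, edgeR's quasi-likelihood test), and DESeq2 gave an adjusted p of 0.022.

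The Nnt call was close to the threshold. It was lost, with adjusted p from 0.067 to 0.110, when WT replicate 4909 (0.107), 5355 (0.074) or 5356 (0.091) or Taz-KO replicate 4685 (0.090), 5300 (0.110) or 5301 (0.067) was left out, and without both Taz-KO replicates 4685 and 5301 (0.142). It was kept without WT replicate 4686 (0.018) and without Taz-KO replicate 4910 (0.036). The call was also lost without TMM, with clusters at resolution 0.5, with doublets kept, with an ambient share subtracted and in nuclei under 5% mitochondrial UMIs. The values are given in the section on processing. The log2 fold change stayed between -0.95 and -0.63 in every alternative run.

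Nnt lies on chromosome 13 (chr13:119335448-119408997, minus strand), and the second gene model covers nearly the same stretch (chr13:119335528-119408952), so reads that fit both models may not have been counted and the Nnt level is uncertain. Some inbred laboratory mice carry a deletion within Nnt, and counts per gene do not show which exons were read. By cell type Nnt was highest in cardiomyocytes, at a WT mean of 73.9 ± 17.4 CPM (SD, n = 4), and the next type, mesothelial cells at 14.9 ± 3.14 CPM, did not overlap. In 14 of 24 sums of fibroblasts, endothelial cells and macrophages, Nnt was at or below the share that the cardiomyocyte markers had. Cardiomyocytes fell into 8 clusters, and the Nnt mean of Taz-KO mice was below that of WT mice in 8 of 8. The clusters come from the same mice and are no independent replicates. Nampt, Nmnat1 and Nmnat3, none of them called, were lower in 7 of 8. The nuclei of the 2 genotypes were spread unequally over these clusters, with 6861 WT and 3965 Taz-KO nuclei in cluster 5, 4590 and 1899 in cluster 6, 1437 and 3407 in cluster 9, and 97 and 301 in cluster 31. The clusters were made without Nnt and the other listed genes, but genes that differ between genotypes were not left out. The atrial genes Myl4, Myl7 and Sln were highest in clusters 10 and 29, with Myl4 at 194 and 626 CPM. The genes furthest above the median cluster in cluster 10 included Mhrt, Gm17428 and Gm31251, as in clusters 5 and 6, so cluster 10 is not named atrial here. The WT means of Nnt there were 40.5 and 29.1 CPM, beside 65.1 to 79.3 CPM in the other 6. The largest Taz-KO mean of Nnt in any cluster was 56.9 CPM. Cluster 10 had the highest median share of mitochondrial UMIs of the 8, at 19.6%. It also had the lowest median UMIs relative to the library, at 0.822. Sirt3 was lowest in the same 2 clusters, at WT means of 30.9 and 35.5 CPM. Whether the low Nnt levels are particular to atrial cells was not tested.

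Over the 8 mice, the genes whose cardiomyocyte level was most like that of Nnt were Cecr2 (Pearson r = 0.984), Map3k21 (r = 0.971) and Zfp113 (r = 0.962), by log2(CPM + 1) among 18546 genes. As a description, Cecr2 was at 90.4, 197, 147 and 198 CPM in WT replicates 4686, 4909, 5355 and 5356 and at 110, 116, 69.3 and 80.1 CPM in Taz-KO replicates 4685, 4910, 5300 and 5301. It had the low value in WT replicate 4686 that Nnt has. In all, 96 genes had r above 0.9, over mice that share genotype, depth and cell typing with these values.

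**Figure D5:**
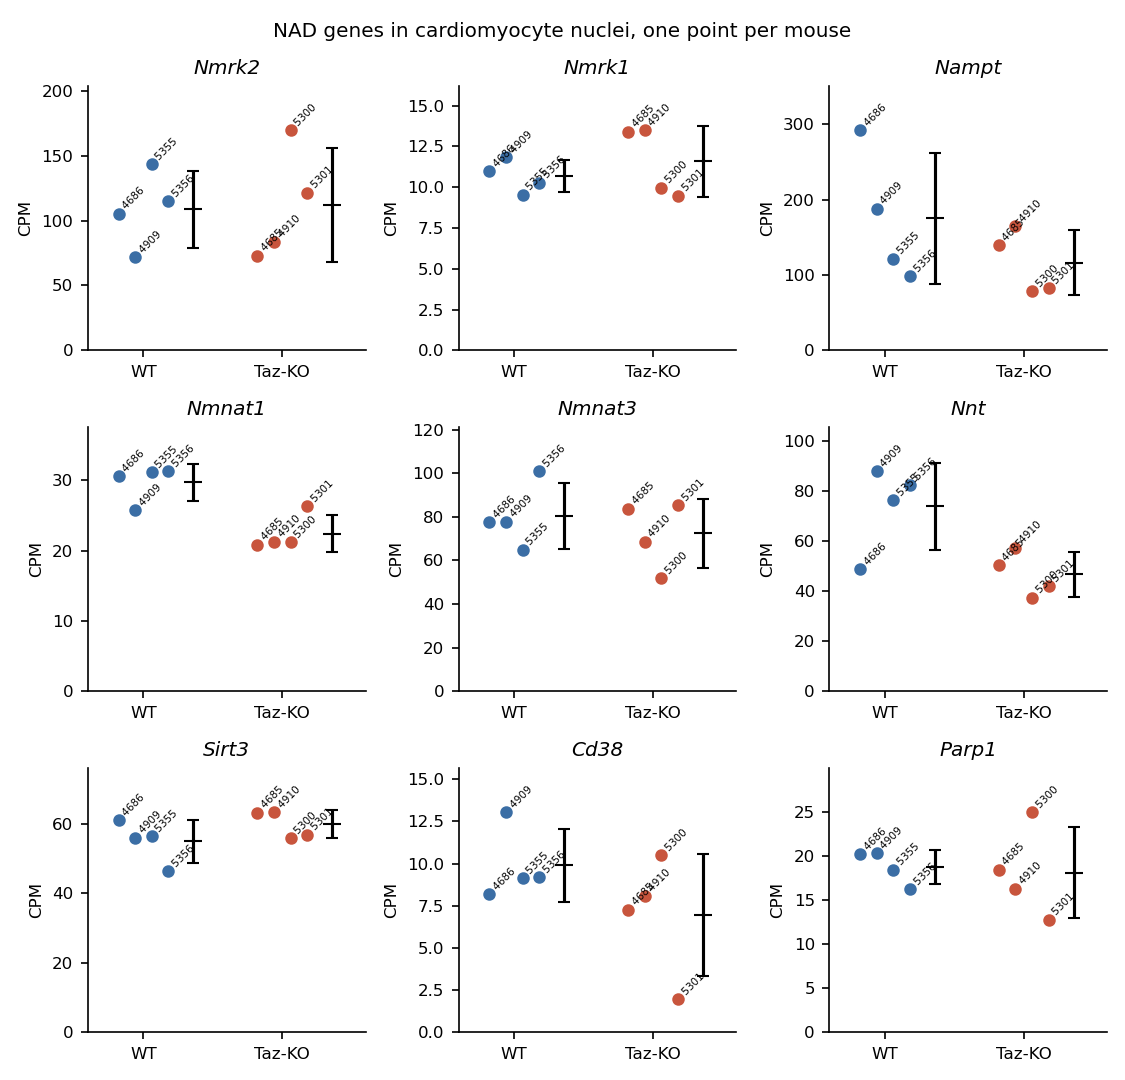
CPM (y axis, from 0) of the 9 genes in cardiomyocyte nuclei of 4 WT and 4 Taz-KO mice, each point labelled with its replicate number, with the mean and SD beside each group. Nnt is at 37.4 to 57.4 CPM in Taz-KO and at 76.3 CPM or more in 3 of 4 WT mice, and all 9 genes overlap between the groups.

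Sirt3, the main deacetylase of mitochondria, differed little between genotypes in the 4 cell types tested. In adipocytes, which were not tested, its mean was 50.6 CPM in WT (n = 4) and 98.2 CPM in Taz-KO (n = 3). These means include WT replicate 5356 at 23.9 CPM from 42 nuclei and Taz-KO replicate 5301 at 144 CPM from 24 nuclei. Sirt3 was picked there with its values known. In WT cardiomyocytes it was at 61.0, 55.9, 56.4 and 46.3 CPM in replicates 4686, 4909, 5355 and 5356. In Taz-KO cardiomyocytes it was at 63.1, 63.3, 55.9 and 56.8 CPM in replicates 4685, 4910, 5300 and 5301. The groups overlapped, and the log2 fold change was 0.00 with an interval from -0.32 to 0.33, which covers folds from 0.799 to 1.26. In fibroblasts, endothelial cells and macrophages the log2 fold changes were 0.01, 0.02 and -0.01, with intervals that reached no further than 0.55 on either side. Cardiomyocytes (54.9 ± 6.15 CPM) and adipocytes (50.6 ± 18.1 CPM) had the highest WT means and overlapped, and adipocytes did not overlap with fibroblasts (20.5 ± 2.02 CPM, SD, n = 4), the next in the order. Sirt3 lies on chromosome 7 at chr7:140863666-140882309, minus strand.

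Cd38, a glycohydrolase at the cell surface that splits NAD, had its highest levels among the 8 named cell types in endothelial cells and macrophages, at WT means of 85.2 ± 13.5 and 80.6 ± 15.6 CPM (SD, n = 4), which overlapped. Both stood above mesothelial cells (46.8 ± 10.1 CPM), and macrophages did not overlap with them. The lowest level was in cardiomyocytes, at 9.89 ± 2.15 CPM, with no overlap with fibroblasts (17.8 ± 3.06 CPM), the next lowest. After thinning to 1000 UMIs, 6.85% to 9.58% of WT endothelial nuclei had a Cd38 UMI, and 0.849% to 1.30% of WT cardiomyocyte nuclei did. Without thinning the shares were 22.4% to 31.2% and 7.91% to 15.1%. The part of RNA from other cells in the cardiomyocyte share was not tested, and the WT means of the cardiomyocyte clusters ran from 6.05 to 27.4 CPM.

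Between genotypes Cd38 overlapped in all 4 types. In macrophages it was at 70.9, 75.9, 71.9 and 103.9 CPM in WT replicates 4686, 4909, 5355 and 5356. The Taz-KO macrophages were at 50.2, 87.4, 45.6 and 59.2 CPM in replicates 4685, 4910, 5300 and 5301. 3 Taz-KO mice were below all WT mice and replicate 4910 was above 3 of them. In macrophages its log2 fold change was -0.45 with an interval from -1.02 to 0.12. In cardiomyocytes the value was -0.65 (95% interval -1.38 to 0.07), with Taz-KO replicate 5301 lowest at 1.98 CPM. Over the alternatives it ran from -0.85 to -0.28. Cd38 (chr5:43868553-43912375, plus strand) overlaps the gene Gm16014 on the same strand, so reads shared with it may be missing.

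Parp1, the nuclear enzyme that builds poly(ADP-ribose) from NAD at broken DNA, was measured in all cell types, with a highest WT mean 1.79 times the lowest. Its WT means ran from 18.8 ± 1.92 CPM in cardiomyocytes to 33.6 ± 15.4 CPM in adipocytes and 33.2 ± 3.41 CPM in macrophages (SD, n = 4), and each type overlapped with the next. Types further apart in the order could differ, as WT macrophages (28.5 to 36.6 CPM) did not overlap with cardiomyocytes. In 24 of 24 sums of fibroblasts, endothelial cells and macrophages, Parp1 was above the same mouse's cardiomyocyte level, at 103% to 339% of it. In cardiomyocytes it was at 16.2 to 20.3 CPM in WT and 12.8 to 24.98 CPM in Taz-KO, with the widest values in Taz-KO replicates 5301 and 5300. Its log2 fold changes in cardiomyocytes, fibroblasts, endothelial cells and macrophages were -0.20, -0.22, -0.16 and -0.08, and each interval included 0. Parp1 lies on chromosome 1 at chr1:180568924-180601254, plus strand.

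Whether the genotype difference itself differed between cell types was tested with an interaction term in edgeR's quasi-likelihood test, with the mouse as a block. Between cardiomyocytes and fibroblasts 0 of 9 genes were called, beside 3.95% of all genes, between cardiomyocytes and endothelial cells 0 of 9 beside 2.13%, and between cardiomyocytes and macrophages 0 of 9 beside 0.982%. In each of the 3 tests 1 gene had an unadjusted p below 0.05, Nmnat3, Nmnat1 and Nnt in this order, beside 17.1%, 14.2% and 12.3% of all genes. No other tool was run on the interaction. For Nnt the log2 fold change in cardiomyocytes minus that in fibroblasts was -0.29 (95% interval -0.79 to 0.21), and minus that in macrophages it was -0.55 (95% interval -0.99 to -0.10, adjusted p = 0.2998). With no filter on low counts and when any 1 mouse was dropped, the difference from fibroblasts ran from -0.49 without WT replicate 4686 to -0.064 without Taz-KO replicate 5300, and that from macrophages from -0.60 to -0.37 without the same mice. The difference from endothelial cells was -0.29 (95% interval -1.06 to 0.48) and ran from -0.50 without Taz-KO replicate 4685 to -0.055 without Taz-KO replicate 5300. The Nnt difference is thus not shown to be particular to cardiomyocytes.

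Of 67 other genes of NAD and NADP metabolism, 63 were tested in cardiomyocytes and 9 were called, 8 lower and 1 higher in Taz-KO. This is 14.3% of them, beside 14.7% of all genes, and their median log2 fold change was -0.13 beside -0.01 over all genes. In fibroblasts, endothelial cells and macrophages 0 of 64, 63 and 59 were called, beside 0.341%, 0.454% and 0.251% of all genes. At an unadjusted p below 0.05 were 7, 3 and 2, beside 9.67%, 8.15% and 5.75% of all genes. DESeq2 called 12 of the 63 in cardiomyocytes, beside 3496 of all 18536 genes. It called 0 in each of the other 3 types, beside 349 of 17588 genes in fibroblasts, 280 of 16072 in endothelial cells and 118 of 13927 in macrophages. The interaction test called 6 of 65 (9.23%, beside 3.95% of all genes) between cardiomyocytes and fibroblasts. Between cardiomyocytes and endothelial cells or macrophages it called 0 of 64 and 0 of 63, beside 2.13% and 0.982% of all genes. At an unadjusted p below 0.05 were 12, 10 and 8 in this order, beside 17.1%, 14.2% and 12.3% of all genes. These lists are thus not shown to differ in cardiomyocytes alone. Among the genes that make NAD from nicotinic acid or tryptophan, 1 of 8 tested was called. This was Naprt, which starts the route from nicotinic acid, at 4.59 ± 0.992 CPM in WT and 1.85 ± 0.783 CPM in Taz-KO (SD, n = 4), with no overlap and a log2 fold change of -1.44 (adjusted p = 0.0056, edgeR's quasi-likelihood test). Naprt overlaps Eef1d on the same strand, so its counts are uncertain.

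Nadk2, the mitochondrial kinase that makes NADP from NAD, was at 35.7, 54.9, 49.0 and 60.9 CPM in cardiomyocytes of WT replicates 4686, 4909, 5355 and 5356. In Taz-KO replicates 4685, 4910, 5300 and 5301 it was at 31.1, 29.5, 23.0 and 17.9 CPM. The groups did not overlap, and Nadk2 fell by 1.13 ± 0.22 on the log2 scale (SE, adjusted p = 0.0062, edgeR's quasi-likelihood test). Of the 2 NADP kinases tested it was the 1 called, beside 14.7% of all genes called and 6.36% called lower. The other was Nadk.

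The list of 15 other genes tested with the PARPs in cardiomyocytes included Parg and Adprhl2, which are not PARPs. Of the 15, 2 were called lower and 1 higher (20% called, beside 14.7% of all genes). Parp3, which acts at DNA breaks, was at 26.9 to 30.8 CPM in WT and 9.86 to 22.5 CPM in Taz-KO cardiomyocytes, with a log2 fold change of -1.09. Parp9 was at 41.8 to 69.0 CPM and 26.6 to 43.9 CPM, a log2 fold change of -0.94 with overlapping groups. Parp16, an enzyme of the endoplasmic reticulum, was the 1 higher, at 8.46 to 11.3 CPM in WT and at 14.98 to 28.1 CPM in Taz-KO cardiomyocytes, with a log2 fold change of 0.92 with no overlap. Of the other 6 sirtuins 0 were called by edgeR's test and 0 by DESeq2, with 0 at an unadjusted p below 0.05. Of the 12 genes of salvage, transport and clearance edgeR's test called 0, with 5 at an unadjusted p below 0.05, and DESeq2 called 2. Of all genes edgeR's test called 14.7%, with 28.2% at an unadjusted p below 0.05, and DESeq2 called 3496 of 18536.

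Of 19 genes of the NADH shuttles and of NADPH supply, 4 (21.1%) were called in cardiomyocytes, all lower in Taz-KO, beside 14.7% of all genes called and 6.36% called lower. Me3, the mitochondrial NADP-dependent malic enzyme, went from 211 ± 24.6 to 116 ± 21.2 CPM (SD, n = 4) with no overlap, a log2 fold change of -0.98. Ldhb, the heart form of lactate dehydrogenase, went from 322 ± 55.4 to 216 ± 40.1 CPM with no overlap, a log2 fold change of -0.71. Gpd2, the mitochondrial enzyme of the glycerol phosphate shuttle, had a log2 fold change of -0.56 with no overlap. Ldha, the other lactate dehydrogenase, had one of -0.78 with overlapping groups (adjusted p = 0.048, edgeR's quasi-likelihood test). The Gpd2 call was lost without WT replicate 4686 (0.053), 4909 (0.092) or 5356 (0.061) or Taz-KO replicate 4685 (0.080) or 5300 (0.088), the Ldhb call without WT replicate 4909 (0.067), and the Ldha call without any of the mice other than WT replicate 5356. Without both Taz-KO replicates 4685 and 5301 the adjusted p of Me3 was 0.060, of Ldhb 0.119, of Gpd2 0.119 and of Ldha 0.156, while Naprt, Nadk2, Parp3, Parp9 and Parp16 stayed called.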

How the data were processed

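Nuclei of whole hearts from 4 WT and 4 Taz-KO mice were sequenced, 1 library per mouse. The deposited values are raw UMI counts per gene and nucleus, which the authors made with Cell Ranger 6.0.1 on mm10 with introns included. Barcodes were kept here with at least 800 UMIs and 250 genes, both counted without mitochondrial genes (167495 of 169193). Of these, 16231 were removed as doublets by a score from simulated pairs. The other 151264 nuclei were clustered (15 components, Leiden resolution 0.9, 36 clusters), and clusters were named from fixed markers by a rule that was revised once after its scores had been seen, which left 38982 nuclei unnamed. Names rebuilt in this way may differ from those of the study.

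For each mouse the counts of a cell type were added up, a type needing at least 10 nuclei in a mouse. CPM divides each sum by all its UMIs outside the mitochondrial genes. Genotypes were compared with edgeR 4.0.16 (R 4.3.3, TMM, filterByExpr, robust quasi-likelihood fit and two-sided test, mitochondrial genes left out), with Benjamini-Hochberg adjustment over all genes tested. DESeq2 1.42.0 was an alternative, and the model was tested on simulated data. P-values cover the spread between these mice only. Intervals are at 95%, and the fewest nuclei in a sum were 245 cardiomyocytes, 250 fibroblasts, 352 endothelial cells and 141 macrophages. The labels give no batch. The members and lists were chosen with earlier results of these data known. The named genes were the 9 members, the called genes of the other lists (at most 15 per type) and, for a member called in cardiomyocytes, the 3 genes with the highest Pearson r. CG counts and the TATAAA search were added after the sequences were seen, and library sizes without TMM after the data were seen. Positions are from GENCODE vM21 (GRCm38, the build of the files) and promoters from RefSeq. Levels are not compared between genes, since CPM is not per length. Fewer molecules per nucleus and a different mix of nuclei within a type cannot be told apart in the sums.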

Additional observations from a re-analysis of the deposited data

Results flagged for a closer look

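In 8 of the 72 groups of 4 mice examined (9 genes, 4 cell types, 2 genotypes), 1 mouse stood far from the other 3 of its group by Dixon's criterion, which chance does in about 1 in 20 groups. WT replicate 5356 was such a mouse in macrophages for Nmrk1 (13.2 CPM, others 9.43 to 10.00), for Nmnat3 (93.8 CPM, others 38.0 to 46.9) and for Cd38 (103.9 CPM, others 70.9 to 75.9). Nmnat1 had such values in cardiomyocytes of WT replicate 4909 (25.7 CPM, others 30.6 to 31.3) and of Taz-KO replicate 5301 (26.3 CPM, others 20.8 to 21.3), the 2 mice through which the genotypes overlap for this gene. The remaining 3 rest on few molecules. Nmnat1 was at 6.91 CPM from 15 UMIs in fibroblasts of Taz-KO replicate 5301 (others 11.4 to 12.1) and at 1.93 CPM from 1 UMI in macrophages of Taz-KO replicate 4685 (others 10.5 to 11.5). Nnt was at 1.37 CPM from 2 UMIs in endothelial cells of Taz-KO replicate 4685 (others 8.51 to 9.55).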

How the results depend on the processing

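The count of NAD genes called in cardiomyocytes was 1 and became 0 with library sizes without TMM, without Taz-KO replicates 4685 and 5301 together, with clusters at resolution 0.5 and with doublets kept, and 2 (Nmnat1 and Nnt) with nuclei typed one by one from 2 markers. Leaving out 1 mouse gave 0 to 1 in cardiomyocytes and 0 to 1 in endothelial cells, the latter being Nmrk2 without Taz-KO replicate 5301. With an ambient share subtracted 1 gene was called, Nmnat1 and not Nnt (adjusted p = 0.063, edgeR's quasi-likelihood test), and Cd38 was not tested. The subtracted share was 0.2 of each sum, with the profile of the 10% of barcodes with the fewest UMIs in each library. Those barcodes were deposited among the nuclei, so the profile is not one of empty droplets. The adjusted p of Nnt was 0.057 without TMM, 0.050 at resolution 0.5, 0.082 with doublets kept and 0.109 in nuclei under 5% mitochondrial UMIs. The cause of these changes was not tested. In fibroblasts and macrophages the count was 0 in every alternative run.

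Signs turned for the following log2 fold changes, none of them called. In cardiomyocytes, Nmrk2 (-0.10) was at 0.044 without TMM and at -0.29 to 0.086 with 1 mouse left out, and Nmrk1 (-0.01) at 0.12 without TMM, 0.066 with doublets kept and -0.12 to 0.12 with 1 mouse left out. Sirt3 there (0.0045) was at -0.0093 with DESeq2, -0.0082 with RLE factors, -0.0059 with ambient subtraction, -0.030 with no filter, -0.052 without Taz-KO replicates 4685 and 5301 together, -0.094 with 2 markers, -0.089 in nuclei under 5% mitochondrial UMIs, and -0.041 to 0.10 with 1 mouse left out. In fibroblasts, Nmrk1 went from -0.20 to 0.0040, Nampt from -0.35 to 0.080 and Sirt3 from -0.063 to 0.062 with 1 mouse left out. Nampt was at 0.053 without both mice, Sirt3 at -0.0063 with RLE factors and -0.026 with no filter, and Cd38 (-0.26) at 0.12 with 2 markers. In endothelial cells, Nmrk1 went from -0.29 to 0.031 and Sirt3 from -0.13 to 0.15 with 1 mouse left out. Nmnat1 was at 0.061 without both mice, and Sirt3 at -0.0012 with RLE factors, -0.0099 with no filter and -0.054 with doublets kept. In macrophages, Sirt3 (-0.0086) was at 0.0060 with DESeq2, 0.052 without TMM, 0.048 without both mice, 0.024 with 2 markers, 0.058 with doublets kept and -0.11 to 0.054 with 1 mouse left out, and Parp1 (-0.08) at 0.12 with 2 markers and -0.22 to 0.0028 with 1 mouse left out.

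Over all genes, dropping TMM moved the cardiomyocyte median log2 fold change from -0.01 to 0.13 and the calls from 2727 (56.7% higher, 43.3% lower) to 2922 (69.3% higher, 30.7% lower). Among the other genes named, Naprt (0.051) and Parp16 (0.135) lost their call in nuclei under 5% mitochondrial UMIs, while Nadk2, Parp3 and Parp9 kept it in all 18 alternatives. Nuclei under 5% mitochondrial UMIs could not be fitted outside cardiomyocytes, and WT replicate 4909 dropped out of that fit. No paired analysis was possible because the groups share no replicate numbers. Depth limits the low values outside cardiomyocytes, such as the Nnt level in endothelial cells of Taz-KO replicate 4685, which rests on 2 UMIs.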

Other observations

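Adipocytes were not among the 4 types tested, and 1 Taz-KO mouse had fewer than 10 of them. In adipocytes Sirt3 was at 64.2, 56.8, 57.6 and 23.9 CPM in WT replicates 4686, 4909, 5355 and 5356. It was at 71.3, 79.1 and 144 CPM in Taz-KO replicates 4910, 5300 and 5301. The 3 Taz-KO values lay above the WT values, and they rest on 152, 53 and 26 Sirt3 UMIs. Nmrk1 and Nnt also did not overlap, with lower values in Taz-KO. Nmrk1 was at 23.9 to 26.6 CPM in WT and at 23.0, 5.97 and 11.1 CPM in Taz-KO, from 49, 4 and 2 UMIs. Nnt was at 9.96 to 18.9 CPM in WT and at 9.38, 5.97 and 0 CPM in Taz-KO, from 20, 4 and 0 UMIs, the last of these in a sum where 2 UMIs make 11.1 CPM. These 3 of the 9 genes were picked with their values known. The share of all genes without overlap in the same sums was not measured, so the count of 3 has nothing to be read against. Among nuclei left unnamed, Cd38 had WT means of 115 ± 10.95 CPM in cluster 16, 99.9 ± 23.6 CPM in cluster 28 and 87.8 ± 33.9 CPM in cluster 15 (SD, n = 4), beside 85.2 CPM in endothelial cells. These clusters too were picked for their values.

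Over the 8 cardiomyocyte clusters, the Taz-KO mean was below the WT mean in 7 for Nampt, Nmnat1 and Nmnat3, in 6 for Cd38, in 5 for Nmrk1, in 4 for Nmrk2, in 3 for Parp1 and in 2 for Sirt3. The clusters share mice and are no independent replicates.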
